A study of Caenorhabditis elegans with 2 samples.

Results

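The regions described here are the candidate DAF-16 binding peaks at transfer RNA (tRNA) genes. They are the entries of the deposited peak list called on both replicates together, on the ce11 build of the Caenorhabditis elegans genome, whose summit lay within 100 bp of a nuclear gene annotated as tRNA by Ensembl. There were 426 of them among 29977 nuclear candidates, and the list also held 23 mitochondrial entries that were left out. The pooled list holds many weak peaks, so its entries are called candidates. A shorter deposited list was selected by irreproducible discovery rate (IDR), a measure of how alike peaks rank in replicates, and a candidate that is in it is called an IDR peak.

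The series profiled DAF-16, the FOXO transcription factor at the end of the insulin receptor pathway, by chromatin immunoprecipitation with an antibody against GFP and sequencing. The animals were hermaphrodite L4 larvae of strain ZM7247, collected 54 h after release from L1 starvation, and 2 biological replicates formed the only group. The genotype combines the daf-16(mu86) deletion, the daf-2(e1370) allele of the insulin receptor gene and a transgene, hpSi4, in which the body wall muscle promoter Pmyo-3 drives GFP::daf-16a, so that the tagged protein is expected in body wall muscle while chromatin came from the whole animal. The labels also describe a C-terminal GFP-FLAG fusion, which differs from the order in the genotype, their antibody field reads daf-16 where the description gives anti-GFP, and no second genotype or control library was analysed here, so all comparisons are between classes of candidates within this group.

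tRNA genes are short genes transcribed by RNA polymerase III. Their promoters lie inside the transcribed sequence as an A box and a B box, which the factor TFIIIC recognises before TFIIIB places the polymerase upstream, and a run of T on the coding strand ends transcription. Nuclear tRNA genes of C. elegans occur as families of identical copies scattered over all chromosomes, many of them in introns of protein-coding genes and many on X. In yeast, signal at tRNA genes has been described in chromatin immunoprecipitation of many unrelated factors, and the files analysed here hold no sample without the tagged protein to set beside them.

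The annotation was checked against the reference sequence. The B box pattern GTTCNANNC was found on the coding strand of 587 of the 612 nuclear tRNA genes (95.9%), and a run of TTTT followed within 30 bp downstream of 605 (98.9%). Gene length ran from 64 to 122 bp with a median of 72 bp. The anticodon could be read from the sequence in 597 genes, the initiator type of methionine gene included. The 612 genes comprise 200 distinct sequences, of which 143 occur once and the most frequent occurs 29 times. The genes with a candidate thus carried the features that define a tRNA gene, the B box being present in 408 of 421.

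The genes at the strongest tRNA candidates are printed here because the signal at them is followed through the replicates and the copies. The sequences are those of the RefSeq copy of WBcel235, the assembly that ce11 names, written 5′ to 3′ on the coding strand, with the match to the B box pattern in capitals. W02H3.t1, a leucine gene with anticodon TAG, lies at chrX:11095673-11095754 on the plus strand. C18A11.t2, an arginine gene with anticodon ACG, lies at chrX:8036685-8036757 on the minus strand. T23F1.t1 at chrV:15465086-15465158 and C33G3.t2 at chrX:14063946-14064018 are lysine genes with anticodon TTT and have the same sequence. C04A11.t1, a leucine gene with anticodon CAA whose sequence occurs once in the genome, lies at chrX:13665555-13665673. R04D3.t2, a valine gene with anticodon TAC, lies at chrX:13307034-13307106. F46G11.t2, a proline gene with anticodon TGG, lies at chrX:5801211-5801282.
W02H3.t1: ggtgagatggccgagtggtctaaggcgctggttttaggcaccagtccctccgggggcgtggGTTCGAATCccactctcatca
C18A11.t2: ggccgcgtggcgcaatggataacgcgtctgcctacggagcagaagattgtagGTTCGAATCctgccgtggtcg
T23F1.t1 and C33G3.t2: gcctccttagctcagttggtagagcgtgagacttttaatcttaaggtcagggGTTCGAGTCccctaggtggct
C04A11.t1: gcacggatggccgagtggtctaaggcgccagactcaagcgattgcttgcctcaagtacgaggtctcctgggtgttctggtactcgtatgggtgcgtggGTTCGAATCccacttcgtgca
R04D3.t2: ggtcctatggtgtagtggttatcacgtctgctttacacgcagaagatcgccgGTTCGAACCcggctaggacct
F46G11.t2: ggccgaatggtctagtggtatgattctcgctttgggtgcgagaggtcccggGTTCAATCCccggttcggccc

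A pair of tyrosine genes with anticodon GTA, R11.t1 and R11.t3, is shown with 40 bp on each side because the genes are identical and the signals at them were not. Both lie on the minus strand, R11.t1 at chrX:16209769-16209852 and R11.t3 at chrX:16208825-16208908. The gene is in capitals and the flanks are in lower case.
R11.t1: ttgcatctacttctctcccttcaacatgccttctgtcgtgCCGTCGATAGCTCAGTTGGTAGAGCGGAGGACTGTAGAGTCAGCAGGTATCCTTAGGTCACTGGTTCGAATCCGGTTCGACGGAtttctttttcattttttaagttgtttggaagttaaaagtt
R11.t3: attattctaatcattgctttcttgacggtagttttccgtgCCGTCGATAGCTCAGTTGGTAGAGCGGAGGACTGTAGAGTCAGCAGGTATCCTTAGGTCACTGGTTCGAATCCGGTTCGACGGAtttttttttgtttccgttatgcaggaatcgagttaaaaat

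Motif matches near summits are shown in windows of 60 bp on each side of the summit, on the plus strand of the reference. In the windows of W02H3.t1 (chrX:11095569-11095689) and R11.t1 (chrX:16209793-16209913) the capitals mark GAGAGA or its complement TCTCTC. In the windows of F43C9.t1 (chrX:4789051-4789171) and C24H11.t1 (chrIII:11792768-11792888) they mark the DAF-16 binding element TGTTTAC or its complement GTAAACA.
W02H3.t1: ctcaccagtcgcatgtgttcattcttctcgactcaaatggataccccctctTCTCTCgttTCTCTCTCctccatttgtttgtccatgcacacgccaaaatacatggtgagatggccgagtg
R11.t1: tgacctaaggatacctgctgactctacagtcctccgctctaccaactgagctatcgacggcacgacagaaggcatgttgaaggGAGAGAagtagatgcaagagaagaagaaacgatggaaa
F43C9.t1: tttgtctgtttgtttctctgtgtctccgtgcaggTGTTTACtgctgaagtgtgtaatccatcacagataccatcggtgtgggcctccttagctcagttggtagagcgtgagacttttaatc
C24H11.t1: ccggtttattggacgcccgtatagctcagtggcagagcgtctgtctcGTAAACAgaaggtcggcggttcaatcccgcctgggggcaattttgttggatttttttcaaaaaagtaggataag

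Candidates at tRNA genes were strong for this list. Of the 426, 181 were IDR peaks (42.5%, Wilson 95% interval 37.9 to 47.2%), whereas 2540 of all 29977 nuclear candidates were IDR peaks (8.47%). The signal that the authors' peak caller gave had a median of 52.5 at tRNA candidates and of 16.6 over all nuclear candidates, and 386 tRNA candidates (90.6%) were above the median of all candidates. tRNA candidates thus made up 1.42% of nuclear candidates and 7.13% of nuclear IDR peaks. The signal of a peak is the authors' value, with no error and with a depth that is unknown, and it was used only to rank and describe peaks within a list. Chance tests against the whole list were not made, because the tRNA candidates were chosen with earlier results of these data known.

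The IDR list consists of the candidates of highest pooled signal, so its limit is a limit on signal. The lowest IDR peak of the whole list had a signal of 60.5, and no candidate outside the list reached it. The 181 tRNA IDR peaks ranged from 60.5 to 263 with a median of 88.6, and the other 245 tRNA candidates ranged from 9.38 to 60.1 with a median of 35.7. The limit runs through the bulk of the tRNA candidates: 102 of them had a signal within 20% of it, and 48 of these were inside. Just inside were F25F6.t1 (glutamate) with a signal of 60.9, C43G2.t1 (leucine) with 60.6 and C29F7.t2 (serine) with 60.5. Just outside were Y39A1A.t1 (threonine) with 60.1, Y51H7BR.t1 (serine) with 59.96 and D1009.t2 (leucine) with 59.8. With the IDR peaks of at least the median IDR signal as the called set, 71 tRNA candidates were called (16.7%), beside 4.20% of all nuclear candidates.

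The highest tRNA candidate was at W02H3.t1, with its summit 44 bp upstream of the gene and a signal of 263, which ranked 124 among all candidates. It had a signal of 112 in replicate 1 and of 150 in replicate 2, and it was the highest tRNA candidate of replicate 2. C18A11.t2 followed with 247 in the pooled list, 137 in replicate 1, where it was the highest tRNA candidate, and 127 in replicate 2. Candidates away from tRNA genes reached higher signals, up to 865. Next came the lysine gene T23F1.t1 with 212 and its identical copy C33G3.t2 with 206. The tyrosine gene R11.t1 had 205, with 102 in replicate 1 and 101 in replicate 2. The asparagine gene F41D9.t3, which lies in an intron of sulp-3, a gene of the sulfate permease family, had 195. The single-copy leucine gene C04A11.t1 had 182, with a summit inside the gene.

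The remaining members of the 10 highest were R04D3.t2 with 176, F46G11.t2 with 172 and the threonine gene W09G10.t3 with 170. All 10 were among the strongest candidates of both replicate lists. Of these 10 candidates 8 were on X, and the exceptions were T23F1.t1 on V and W09G10.t3 on II. T23F1.t1, F46G11.t2 and W09G10.t3 had summits within 100 bp of 2 tRNA genes, so their signal cannot be given to one gene. The weakest of all 426 was at the isoleucine gene R11B5.t3, an intronic gene on X, with 9.38.

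**Figure D1:**
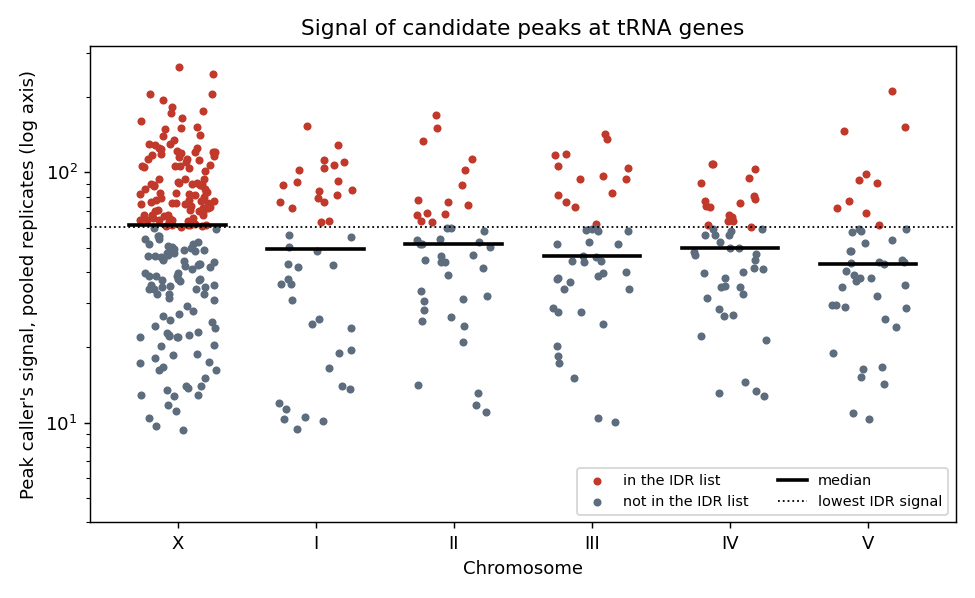
Signal given by the authors' peak caller on the pooled replicates (vertical log axis, no unit given) for each of the 426 tRNA candidates by chromosome (horizontal axis), with IDR peaks in red, other candidates in grey, a black bar at each median and a dotted line at the lowest IDR signal of 60.5. On X 107 of 201 points lie at or above the line, and on V 10 of 44.

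The high share of strong candidates at tRNA genes was seen in each replicate alone. In the list of replicate 1, 165 of 434 tRNA candidates were among its 2563 strongest entries (38.0%), beside 9.45% of its nuclear candidates. In the list of replicate 2, 182 of 426 were (42.7%), beside 9.95%. Both replicate lists held a summit within 100 bp of 173 of the 181 pooled tRNA IDR peaks (95.6%), close to the 2413 of all 2540 nuclear IDR peaks (95%). They held one for 153 of the other 245 tRNA candidates (62.4%) and for 22.4% of all nuclear candidates outside the IDR list. Among the 2563 strongest of both replicates were 118 of the 181 tRNA IDR peaks (65.2%) and 0 of the other 245, and 4 tRNA IDR peaks were among the strongest of neither. Of all 2540 nuclear IDR peaks 1774 were among the strongest of both (69.8%) and 69 of neither.

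Over the 326 tRNA candidates matched in both replicates, the signals had a Spearman rho of 0.67 and, on the log10 scale, a Pearson r of 0.65. Over all matched nuclear candidates rho was 0.73. Among the 173 matched tRNA IDR peaks rho was 0.52, beside 0.66 among all matched nuclear IDR peaks. Among the 153 other matched tRNA candidates it was 0.10, beside 0.40 among all other matched nuclear candidates. Each of these sets covers a narrower range of signal, and the lower values at tRNA candidates were not tested. The points share the 2 libraries and, in families of identical genes, sequence. Single loci still differed between replicates. C02B4.t2, a tyrosine gene in an intron of the nuclear hormone receptor gene nhr-17, was flanked by 2 pooled IDR peaks. The upstream one had a pooled signal of 149, with 72.0 in replicate 2 and no match in replicate 1. The downstream one had a pooled signal of 83.7, with 83.5 in replicate 1 and 19.3 in replicate 2. The side on which the stronger summit was called thus differed between the replicates.

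tRNA candidates on X were IDR peaks more often than those on the autosomes. On X 107 of 201 were IDR peaks (53.2%, interval 46.3 to 60.01%), and on the autosomes 74 of 225 (32.9%, interval 27.1 to 39.3%). The log2 odds ratio was 1.22 ± 0.29 (SE), with an adjusted p of 8.46e-05 in Fisher's exact test, two-sided and adjusted by Benjamini-Hochberg over the 7 comparisons made within the tRNA candidates. Median signal was 61.9 on X and 48.3 on the autosomes. These tests take each candidate as a unit, but copies of a gene share sequence and may share reads, and 2 replicates of 1 group give no measure of variation between animals beyond the repeat in each list.

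Each replicate list gave the same direction. In replicate 1, 91 of 202 tRNA candidates on X were among the strongest (45.0%) and 74 of 232 on the autosomes (31.9%), a log2 odds ratio of 0.81 (Fisher's exact test, adjusted p = 0.0193). In replicate 2 the counts were 103 of 209 on X (49.3%) and 79 of 217 on the autosomes (36.4%), a log2 odds ratio of 0.76 (Fisher's exact test, adjusted p = 0.0287). Stratified by isotype, the log2 odds ratio was 1.205 (exact conditional test, adjusted p = 1.13e-04). The candidates away from tRNA genes also had the higher share on X, with 625 of 5542 IDR peaks on X (11.3%) and 1734 of 24009 on the autosomes (7.22%), and whether the difference is larger at tRNA genes was not tested.

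Among the autosomes the IDR share was 43.2% on I (19 of 44), 32.6% on II (14 of 43), 31.1% on III (14 of 45), 34.7% on IV (17 of 49) and 22.7% on V (10 of 44). Chromosome I lay closest to X, and V lay lowest, with overlapping intervals of 29.7 to 57.8% and 12.8 to 37.0%. V was also the chromosome with the lowest share of tRNA genes with any candidate, 43 of 78 (55.1%), beside 201 of 276 on X (72.8%). X held 45.1% of the nuclear tRNA genes, 59.1% of the tRNA IDR peaks and 38.4% of the other tRNA candidates.

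Genes inside introns and genes between other genes did not differ beyond the error of the counts. Among candidates at genes inside introns 78 of 198 were IDR peaks (39.4%), and among those between genes 102 of 222 (45.9%). The log2 odds ratio of -0.39 ± 0.29 did not pass the test (Fisher's exact test, adjusted p = 0.233). On X alone the shares were 54.8% for intronic genes (40 of 73) and 52.0% for intergenic genes (66 of 127). On the autosomes they were 30.4% (38 of 125) and 37.9% (36 of 95).

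Read the other way, the difference between X and autosomes was 1.47 ± 0.44 on the log2 scale among intronic genes (Fisher's exact test, adjusted p = 0.00314) and 0.83 ± 0.40 among intergenic genes, where it no longer passed (adjusted p = 0.147). The difference between these settings was not itself tested. The strongest intronic candidates after F41D9.t3 were at C04A2.t1 (leucine, on II), with a signal of 150, and at C02B4.t2, with 149. The aspartate gene F38G1.t2, in an intron of the fibroblast growth factor gene egl-17, had 140. The alanine gene F15G9.t1, in an intron of the hemicentin gene him-4, had 141, at a summit within 100 bp of 2 tRNA genes.

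Orientation within the intron was looked at because RNA polymerase II crosses these genes. Of the intronic candidates whose gene is transcribed in the same direction as the host, 36 of 105 were IDR peaks (34.3%), and of those in the opposite direction 42 of 92 (45.7%). This difference, a log2 odds ratio of -0.69 ± 0.42, did not pass (Fisher's exact test, adjusted p = 0.182). A further 6 candidates lay at tRNA genes that overlap an exon of a protein-coding gene, and 1 of them, at the glutamate gene C28G1.t1, was an IDR peak. That peak had a signal of 79.1 in the pooled list, 44.2 in replicate 1 and 10.6 in replicate 2. A protein-coding 5′ end lay within 1000 bp of the summit of 169 tRNA candidates, of which 65 were IDR peaks (38.5%), and of the 257 farther away 116 were (45.1%).

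By isotype, the amino acid that the tRNA carries, every one of the 20 standard isotypes had IDR peaks. Shares ran from 27.3% at histidine genes (3 of 11) to 57.1% at cysteine genes (4 of 7). Among isotypes with at least 20 candidates the highest were alanine with 14 of 25 (56.0%) and arginine with 17 of 32 (53.1%), and the lowest was aspartate with 6 of 21 (28.6%). The isotype with the most candidates, glycine, had 15 of 38 (39.5%). The intervals of these isotypes overlap, at 37.1 to 73.3% for alanine and 13.8 to 49.96% for aspartate, and no isotype was tested.

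Among the other isotypes the highest candidates were at M02F4.t2 (glutamate, 165), T10B10.t2 (glycine, 160), C42D8.t1 (isoleucine, 152), C10G8.t1 (glutamine, on V, 152), Y7A5A.t1 (serine, 150) and T15B12.t1 (methionine, on III, 143). Lower still were the highest at C03B1.t1 (tryptophan, 124), C06G1.t1 (histidine, 114) and T28B4.t1 (phenylalanine, 113). The highest cysteine candidate, at C37A2.t1 in an intron of the cyclin E gene cye-1, had 110 and lay on I. Each of these 10 candidates was an IDR peak. The summits at M02F4.t2, T10B10.t2 and Y7A5A.t1 lay within 100 bp of 2 tRNA genes, so the isotype given is that of the nearest gene.

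The single gene for selenocysteine tRNA, K11H12.t1 on IV, which inserts selenocysteine at a UGA codon, had a candidate of signal 34.8 outside the IDR list. Methionine genes split by the base before the anticodon into the type with C there, which marks initiator tRNA, and the type with T, which marks the elongator. Initiator genes had 3 IDR peaks among 6 candidates, with a median signal of 63.3, and elongator genes 2 among 8, with a median of 41.6. Both groups are small and their ranges overlap, from 10.3 to 143 for initiator genes and from 20.5 to 89.5 for elongator genes.

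Within an isotype, some anticodon classes had unlike shares. Leucine genes with anticodon AAG had 2 IDR peaks among 15 candidates (13.3%), while those with TAG had 3 of 3 and those with CAG 3 of 5. Alanine genes with AGC had 10 of 15, and those with TGC 3 of 7. Glutamine genes with CTG had 4 of 5 and those with TTG 4 of 10. Threonine genes with TGT had 5 of 7, those with CGT 3 of 5 and those with AGT 5 of 14. These classes were singled out after their values were seen, hold few candidates each and were not tested.

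**Figure D2:**
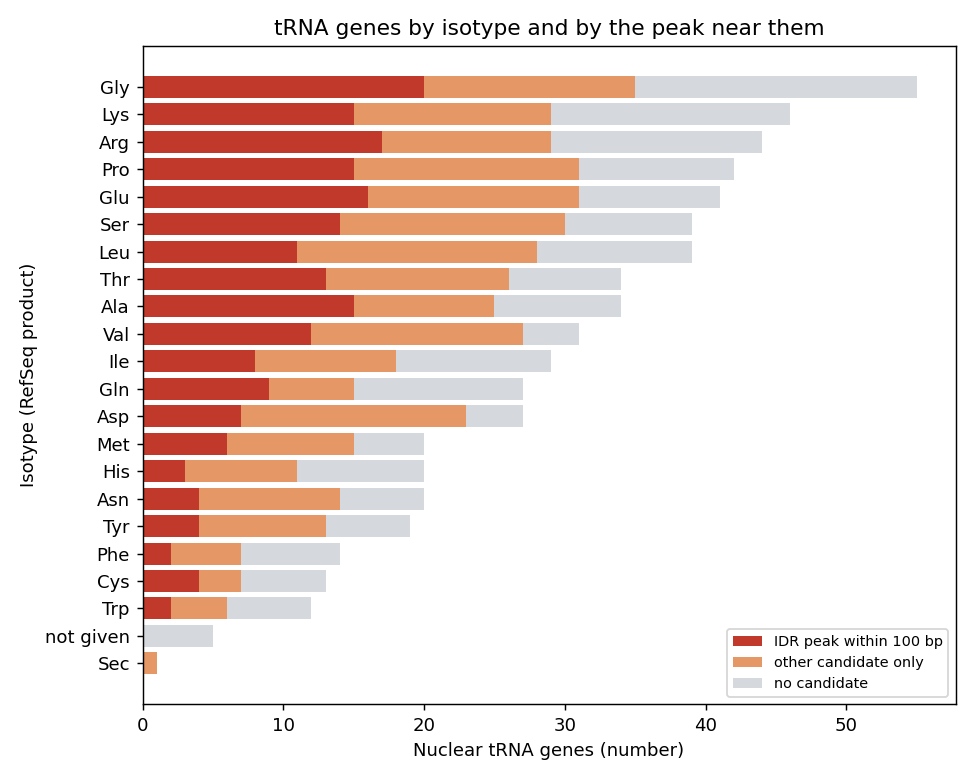
Number of nuclear tRNA genes (horizontal axis) by isotype from the RefSeq product (vertical axis), split into genes with an IDR peak within 100 bp (red), with other candidates only (orange) and with no candidate (grey). Glycine is the largest isotype, and the 5 genes whose isotype is not given have no candidate.

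Candidates at genes of the same sequence spread as widely as the tRNA candidates as a whole. There were 30 families of identical genes with at least 5 candidates, 297 candidates in all. Within families the SD of log2 signal was 0.98, over all tRNA candidates it was 1.00, and the family means had an SD of 0.30. The ratio of the highest to the lowest signal in a family ran from 2.39 to 16.3 with a median of 7.26. These values count candidates and not genes. In some families the lowest signal was a further summit at a gene that also had a stronger one. Examples are F22G12.t1 (valine, 9.43 and 81.3) and F09B9.t2 (arginine, 16.7 and 83.4). Part of the spread therefore lies between summits of the same gene. In several families the highest signal was at a summit within 100 bp of 2 tRNA genes, as at T10B10.t2, F46G11.t2, M02F4.t2 and T23F1.t1. Such a signal cannot be given to a single gene, and its part in the spread was not tested. All 30 families had candidates inside and outside the IDR list. Of the 47 families with at least 2 candidates, 41 had both kinds, 3 had only IDR peaks and 3 had none.

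The tyrosine genes printed above with their flanks show this spread. Their family has 6 identical genes, all on X. R11.t1 had a pooled signal of 205, with 102 in replicate 1 and 101 in replicate 2. R11.t3, on the same strand and identical over its whole length, had a pooled signal of 12.9, with 9.18 in replicate 1 and no match in replicate 2. R11.t4, another copy in the same cluster, had 32.6 in the pooled list and 18.4 in replicate 2. Among identical genes of one cluster, the signal called at R11.t1 was thus many times that at the other copies, and these loci differ in the flanks and not in the gene. GAGAGA lay within 100 bp of the summit at R11.t1 and not at R11.t3 or R11.t4. It was also absent at the upstream IDR peak of C02B4.t2, a further copy of this family, whose pooled signal was 149. Strong summits thus occurred with and without the motif in this family, and the summit at C02B4.t2 without it had no match in replicate 1. The parts of the motif and of the flanks in the signal were not tested.

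Other families show the same. The largest, 29 glycine genes with anticodon TCC, had 24 candidates with signals from 10.0 at K04C2.t1 to 160 at T10B10.t2, and 9 were IDR peaks. The 24 proline genes with TGG had 17 candidates from 11.7 at ZK970.t1 to 172 at F46G11.t2, with 7 IDR peaks. The summits at T10B10.t2 and F46G11.t2 each lay near 2 tRNA genes. A family of 10 arginine genes with ACG, all on X, had 8 IDR peaks among 9 candidates, led by C18A11.t2, and the other family of ACG genes, 6 genes with none on X, had 2 among 7. In contrast, the 9 identical leucine genes with AAG are all on X and had 2 IDR peaks among 9 candidates, C04E7.t1 with 120 and F14B8.t1 with 93.7. A place on X therefore went with a high IDR share in one family and not in another. These families were picked after their values were seen, and the counts depend on the limit of 60.5. In the ACG family off X, C28A5.t2 with 59.3 and M57.t1 with 59.5 lay just outside it. The candidate outside the list in the ACG family on X was a further summit at F09B9.t2, which also had an IDR peak of 83.4.

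**Figure D3:**
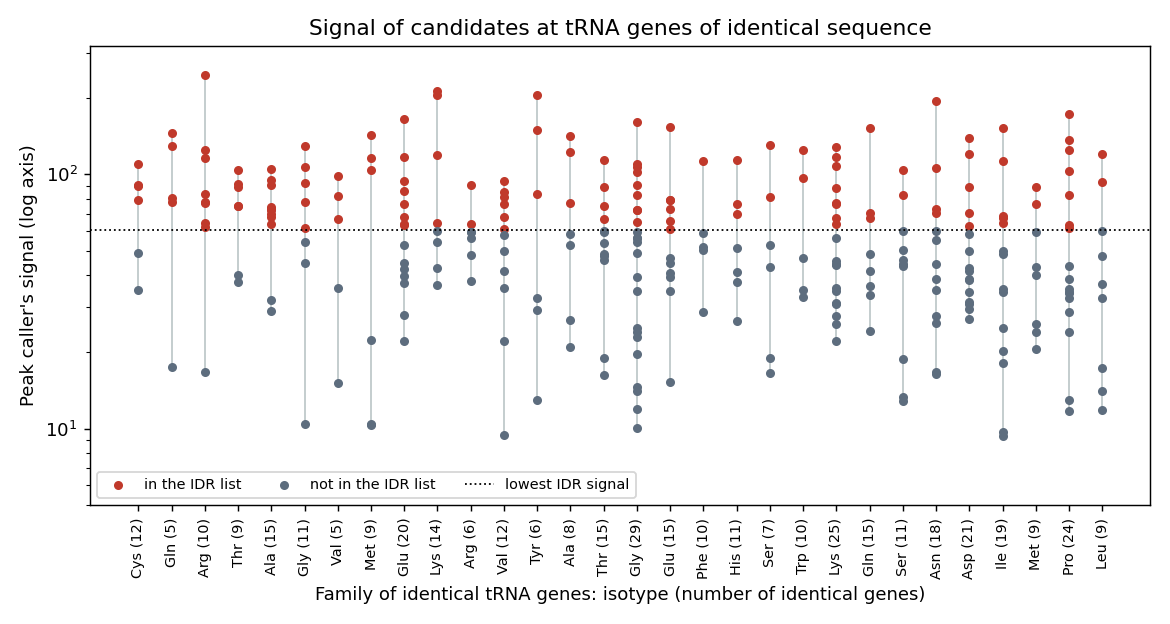
Signal given by the authors' peak caller on the pooled replicates (vertical log axis, no unit given) of tRNA candidates grouped by families of identical tRNA genes with at least 5 candidates (horizontal axis, isotype and number of identical genes), in order of family median, with IDR peaks in red and the others in grey. Each of the 30 families crosses the dotted line at the lowest IDR signal.

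The number of copies was tested directly. Candidates at genes with at least one identical copy were IDR peaks in 154 of 348 cases (44.3%), and those at genes whose sequence occurs once in 27 of 78 (34.6%). With a log2 odds ratio of 0.58 ± 0.38, the difference did not pass the test (Fisher's exact test, adjusted p = 0.182). The share at genes with 10 or more identical copies was 44.6% (103 of 231), close to the 43.6% at genes with 2 to 9 copies (51 of 117). A candidate of any signal lay at 346 of 469 repeated genes (73.8%) and at 75 of 143 single-copy genes (52.4%), a difference that was not tested.

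Repeats can bear on these values, because a read that lies wholly within an identical stretch cannot be assigned to a single copy. How such reads were treated is not given in the sources used here. A sequence of 31 bases that occurs again in the genome lay within 100 bp of the summit of 395 of the 426 tRNA candidates, and 173 of these were IDR peaks (43.8%). Of the 31 tRNA candidates with none 8 were IDR peaks (25.8%, interval 13.7 to 43.2%). These were led by F46G11.t2 with 172, the glycine gene F10C1.t1 with 134 and the aspartate gene Y54G2A.t3 with 108. Their summits lay 92, 96 and 98 bp from the gene. Among candidates away from tRNA genes the order was the other way, with 122 of 3284 IDR peaks where a repeat was present (3.71%) and 2237 of 26267 where none was (8.52%). In the 31 tRNA windows without a repeat the difference between X and autosomes kept its direction, at 4 of 11 and 4 of 20, but did not pass (log2 odds ratio 1.19 ± 1.21, Fisher's exact test, adjusted p = 0.710). A window without a repeat need not belong to a gene without copies. Of the 31 candidates 19 were at genes with an identical copy, F46G11.t2 among them, and 12 at genes whose sequence occurs once.

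tRNA genes that stand close together were compared with solitary ones. Candidates whose gene has another tRNA gene within 1000 bp were IDR peaks in 56 of 152 cases (36.8%), and those at solitary genes in 125 of 274 (45.6%). The log2 odds ratio of -0.52 ± 0.30 did not pass (Fisher's exact test, adjusted p = 0.182). In the list of replicate 1 the log2 odds ratio was -0.10 (Fisher's exact test, adjusted p = 0.756), and in that of replicate 2 it was -0.36 (adjusted p = 0.361). A summit within 100 bp of 2 tRNA genes was an IDR peak in 18 of 22 cases (81.8%, median signal 105), and a summit near 1 tRNA gene in 163 of 404 (40.3%, median signal 51.5). All 22 belong to the clustered genes by definition, and they were singled out after their values were seen, so the share of the remaining clustered genes, 38 of 130, is given with no test. Besides T23F1.t1, F46G11.t2 and W09G10.t3, the summits near 2 genes included those at M02F4.t2 and T10B10.t2.

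A GA repeat near the summit went with a higher IDR share. GAGAGA, in either orientation and at most 100 bp from the summit, was present at 87 tRNA candidates (20.4%) and at 18.3% of all nuclear candidates. Where it was present 58 of 87 tRNA candidates were IDR peaks (66.7%, interval 56.2 to 75.7%), and where it was absent 123 of 339 (36.3%, interval 31.3 to 41.5%). This was a log2 odds ratio of 1.81 ± 0.37 (Fisher's exact test, adjusted p = 3.06e-06). Median signal was 74.5 with the motif and 48.5 without it. The same held in the list of replicate 1, where 56 of 88 with the motif and 109 of 346 without it were among the strongest (63.6% and 31.5%, log2 odds ratio 1.93, Fisher's exact test, adjusted p = 4.82e-07). In replicate 2 the counts were 54 of 90 with the motif and 128 of 336 without it (60% and 38.1%, log2 odds ratio 1.29, Fisher's exact test, adjusted p = 0.00202).

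The motif was not particular to tRNA genes. It lay near 42.0% of the IDR peaks away from tRNA genes and near 16.2% of the other candidates there, and near 32.0% of tRNA IDR peaks and 11.8% of other tRNA candidates. At most tRNA candidates that had it the motif lay outside the tRNA gene. In 75 of the 87 the sequence of the nearest gene did not hold GAGAGA, and 56 of these were IDR peaks. In the other 12 the gene itself held it, and 2 of these were IDR peaks. Genes that hold it are leucine genes with AAG or TAA and glycine genes with GCC, 20 in all. This split was made after seeing the data and was not tested. Median GC content within 100 bp of the summit was 46.3% at tRNA IDR peaks and 44.3% at other tRNA candidates, and its part in the result was not tested.

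The motif and the chromosome were also looked at together, a repeat chosen after seeing the data. On X 35 of 41 tRNA candidates with GAGAGA were IDR peaks (85.4%), and 72 of 160 without it (45.0%). On the autosomes 23 of 46 with it were (50%), and 51 of 179 without it (28.5%). The motif went with a higher share on X (log2 odds ratio 2.83 ± 0.68, Fisher's exact test, adjusted p = 1.92e-05) and on the autosomes (1.33 ± 0.49, adjusted p = 0.0280). X went with a higher share among candidates with the motif (2.54 ± 0.77, Fisher's exact test, adjusted p = 0.00203) and without it (1.04 ± 0.33, adjusted p = 0.00767). In the 31 windows without a repeat the motif made no call, with 2 IDR peaks among 6 candidates that had it and 6 among 25 that lacked it (log2 odds ratio 0.66, Fisher's exact test, adjusted p = 0.788). W02H3.t1 and R11.t1, whose windows are printed above, are candidates on X with the motif, and C18A11.t2, the candidate with the highest signal after W02H3.t1, is on X without it.

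**Figure D4:**
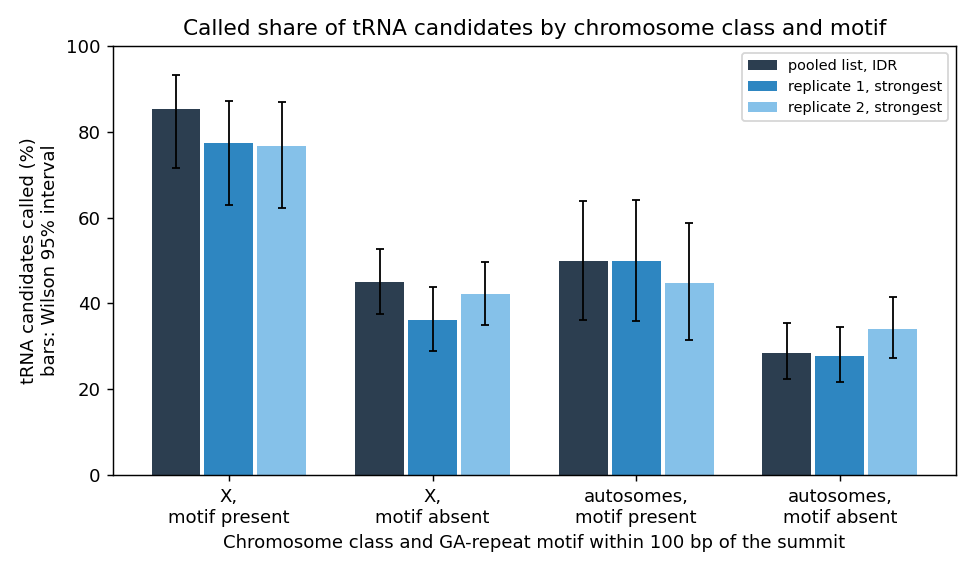
Percent of tRNA candidates called (vertical axis) by chromosome class and by presence of GAGAGA within 100 bp of the summit (horizontal axis), as IDR peaks in the pooled list (dark) and among the 2563 strongest in replicate 1 (mid blue) and replicate 2 (light blue), with Wilson 95% intervals. In the pooled list the share is 85.4% on X with the motif and 28.5% on the autosomes without it, and the order of these classes is the same in each replicate.

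The DAF-16 binding element gave no call among the tRNA candidates. TGTTTAC, in either orientation and at most 100 bp from the summit, was present at 25 tRNA candidates, 11 of them IDR peaks (44.0%), and absent at 401, of which 170 were (42.4%). The odds ratio was 0.09 ± 0.60 on the log2 scale (Fisher's exact test, adjusted p = 1), an error wide enough to hold sizeable differences in either direction. The value moved between the replicates, and in neither did it pass. In the list of replicate 1, 11 of 26 candidates with the element were among the strongest (42.3%) and 154 of 408 without it (37.7%), a log2 odds ratio of 0.27 (Fisher's exact test, adjusted p = 0.756). In that of replicate 2 the counts were 15 of 25 (60%) and 167 of 401 (41.6%), a log2 odds ratio of 1.07 (Fisher's exact test, adjusted p = 0.165). With the stronger IDR peaks as the called set it was 1.03 (Fisher's exact test, adjusted p = 0.280). The element lay at 6.08% of tRNA IDR peaks and 5.71% of other tRNA candidates, at 9.20% of IDR peaks and 2.42% of other candidates away from tRNA genes, and at 2.999% of all nuclear candidates. Away from tRNA genes 217 of 874 candidates with the element were IDR peaks (24.8%), and 2142 of 28677 without it (7.47%).

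Most matches at tRNA genes lay at threonine genes whose own sequence spells the element. The nearest gene of 18 of the 25 candidates holds TGTTTAC or its complement, and 8 of these 18 were IDR peaks. The genes that hold it are 22 threonine genes with anticodon AGT or CGT, as in the window of C24H11.t1 printed above, where the element lies in the transcribed sequence. The candidates at the 3 identical CGT genes were all IDR peaks, C24H11.t1 with 106, F55G7.t2 with 101 and F14F7.t1 with 94.4. In the remaining 7 candidates the element lay outside the gene, and 3 of them were IDR peaks. These were Y7A5A.t1 (serine) with 150, F43C9.t1 (lysine) with 119, whose window is printed above, and H08J11.t3 (glutamine), in an intron of the apical junction gene ajm-1, with 70.7. A match is a description of the letters and not of a bound site.

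Summits lay upstream of, inside and downstream of the tRNA gene. Along the strand of the gene, the median summit was 13 bp from its first base, with quartiles at -21 and 73 bp. Of the 181 IDR peaks 63 had the summit upstream of the gene (34.8%), 77 inside it (42.5%) and 41 downstream (22.7%). Of the other 245 candidates 98 were upstream (40.0%), 87 inside (35.5%) and 60 downstream (24.5%). Candidates were IDR peaks in 39.1% of cases upstream, 47.0% inside and 40.6% downstream, and these shares were not tested. Most candidates have one width, with 399 of the 426 entries being 436 bp wide, so positions rest on the summit alone.

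**Figure D5:**
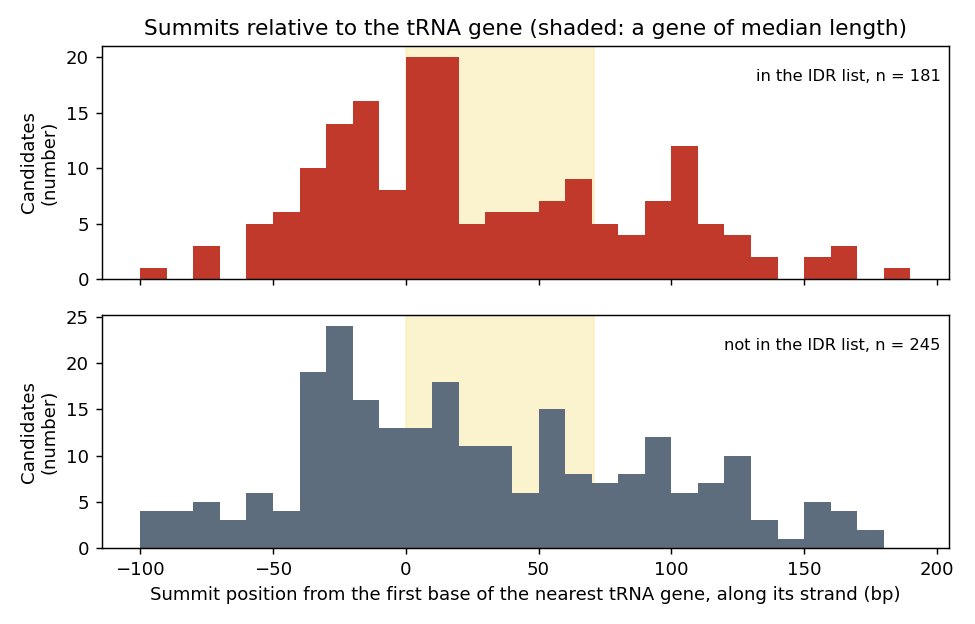
Number of tRNA candidates (vertical axis) by the position of the summit relative to the first base of the nearest tRNA gene along its strand (horizontal axis, bp), for the 181 IDR peaks (upper panel) and the other 245 candidates (lower panel), with a gene of the median length of 72 bp shaded. In both panels summits fall upstream, inside and downstream of the gene.

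Seen from the genes, 421 of 612 nuclear tRNA genes (68.8%, interval 65.0 to 72.3%) had a candidate within 100 bp, 197 (32.2%) had an IDR peak, and 191 had no candidate. The nearest genes of the 426 candidates number 409, because 17 genes were nearest to 2 summits. On X 114 of 276 genes had an IDR peak (41.3%) and on the autosomes 83 of 336 (24.7%). Among intronic genes 83 of 283 had one (29.3%), and among intergenic genes 113 of 319 (35.4%). The genes with no candidate still look like tRNA genes, as 179 of 191 hold the B box pattern (93.7%). The 5 genes for which RefSeq gives no isotype had no candidate. No level of transcription was measured, so whether the genes without a candidate are transcribed is not known from these files.

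Among the other classes compared here, candidates at small nucleolar and small nuclear RNA genes were most like those at tRNA genes in IDR share and median signal. Within 100 bp of a small nucleolar RNA gene 70 of 144 candidates were IDR peaks (48.6%, median signal 55.9), and at small nuclear RNA genes 25 of 56 (44.6%, median 51.8). At microRNA genes 9 of 39 were IDR peaks (23.1%, median 19.6). At 5′ ends of protein-coding genes with no tRNA gene nearby 254 of 2291 were (11.1%, median 19.3). These classes were set side by side without a test. By interval, the shares at small nucleolar (40.6 to 56.7%) and small nuclear RNA genes (32.4 to 57.6%) overlap that at tRNA genes.

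The protein genes that make and use tRNA were looked at from 1000 bp upstream to 200 bp downstream of their 5′ end. Of the 48 genes on the list 29 had a candidate there (60.4%), beside 6580 of all 19973 protein-coding genes (32.9%). An IDR peak lay at 3 of the 48 (6.25%), beside 1249 of the 19973 (6.25%). Among genes with a candidate these are 10.3% and 19.0%, and none of these shares was tested. Of the aminoacyl-tRNA synthetases, which charge tRNA with its amino acid, 20 of 32 had a candidate and 2 had an IDR peak, mars-1 with a signal of 95.2 and ears-2 with 87.4. tftc-1, which encodes a subunit of TFIIIC, had an IDR peak of 62.6, and tftc-3 a candidate of 11.98. The RNA polymerase III subunit genes rpc-1 and rpc-2 had candidates of 28.8 and 16.02, and the TATA-binding protein gene tbp-1 one of 10.2, all outside the IDR list. The 4 genes of tRNA export and processing with a candidate, among them the export receptor gene xpo-3 and the tRNA ligase gene rtcb-1, had none in the IDR list.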

How the data were processed

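Whole L4 animals were profiled by chromatin immunoprecipitation and sequencing, per the labels, which number 2 biological replicates of 1 group. The deposited ce11 lists carry the signal that the authors' peak caller gave to each peak, on a scale that no source used here states. They also carry the −log10 of a q-value, which the authors deposited with one top value for all IDR peaks (q = 1.27e-04), so peaks were ranked by signal alone. The other column used, also deposited, was the summit position. Not given in the sources used here are the aligner, the peak caller, the IDR threshold and the treatment of reads that match several places. The deposited file lists mention a control library from which the peaks were partly derived. Depth is unknown because no file holds read counts, and intervals cover counts of candidates only. The ce10 lists were not used here.

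Summits were assigned to the nearest nuclear tRNA gene of Ensembl release 115 (22 mitochondrial genes were left out), isotypes came from the RefSeq product of the same gene, and anticodons were read from the reference sequence at a loop of 7 bases closed by a stem of 5 pairs. A gene was called intronic when it lay in an intron of a protein-coding gene and no exon overlapped it, and clustered when another tRNA gene lay within 1000 bp. Copies are genes of identical sequence. Motifs and 31-base repeats were searched within 100 bp of the summit, motifs on both strands. Peaks of different lists were matched within 100 bp. No IDR list of a single replicate was used, and the strongest candidates of each replicate list took its place, as many as the 2563 IDR peaks.

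Shares have Wilson 95% intervals. Comparisons within the tRNA candidates used two-sided Fisher's exact tests with Woolf SE of the log2 odds ratio (0.5 was added to every cell of a count table with a 0) and Benjamini-Hochberg adjustment over 7 comparisons, with a threshold of 0.05, in Python 3.11.15 with SciPy 1.17.1 and pandas 2.3.3, and the tests were checked on simulated data. Genes were named at the 10 highest tRNA candidates, at the highest of each isotype, at the highest single-copy gene, at the 3 lowest IDR and the 3 highest other candidates, and for the pathway lists wherever an IDR peak lay. Other genes were named after their values were seen. The members, lists, tests and settings were chosen with earlier results of these data known.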

Additional observations from a re-analysis of the deposited data

How the results depend on the processing

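No paired analysis was possible because the 2 replicates form 1 group. The difference between X and autosomes ran from a log2 odds ratio of 0.76 to 2.54 over 17 changes of setting, and that for GAGAGA from 0.66 to 2.83 over 16, some of them chosen after seeing the data. The first no longer passed within intergenic genes (0.83) or in windows without a repeated 31-base sequence (1.19), and the second only in those windows (0.66). In the same windows intronic against intergenic genes had -4.00 (1 of 17 and 7 of 14 candidates), and the sign turned for clustered genes (1.503), for the host strand (3.06), for repeated sequences (-0.91) and for TGTTTAC (-0.98), and the IDR share was 25.8%, with 31 candidates in all. With 1 candidate per distinct gene sequence, the strongest, the IDR share was 56.3% and the odds ratios were 0.13 for clustered and 3.26 for repeated genes. Taking the highest of several copies raises the repeated genes by construction. With summits inside the gene the values were -1.39 for clustered genes, which then passed, and -0.093 for TGTTTAC. Without summits near 2 tRNA genes, chosen after seeing the data, clustered genes had -1.02; all candidates removed were clustered and most were IDR peaks, so this follows from their removal. With the stronger IDR peaks the IDR share was 16.7% and intronic genes had -0.96, which then passed, and within X intronic genes had 0.16. Several of these settings hold fewer candidates, and the cause of the turned or lost calls was not tested. The share of tRNA genes with a candidate was 26.8% with summits inside the gene, 60.1% within 50 bp and 73.5% within 200 bp. With either replicate left out, no result changed its direction or its side of the threshold, but several odds ratios moved by more than 1.5 times. Without replicate 1 they were 0.76 for X, -0.64 for intronic genes, -0.22 for the host strand, 0.38 for repeated genes and 1.07 for TGTTTAC. Without replicate 2 they were 0.81 for X, -0.10 for clustered genes, -0.25 for intronic genes and 0.27 for TGTTTAC. Unknown depth limits all signals, and no chance of a missed peak can be given.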
